A study of Mus musculus with 3 samples.

Results

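The Notch pathway was followed in LT-HSCs (long-term hematopoietic stem cells), which self-renew in the marrow and give rise to every blood lineage, through 10 genes. These are the receptors Notch1, Notch2 and Notch4, the ligands Jag1 and Jag2, the DNA-binding factor Rbpj, and Hes1, Hey1, Nrarp and Dtx1, which are known targets or modulators of the pathway. All probes carrying one of these names were taken, which gave 15 of 56605 probes and 10 of 37325 genes on the array. The genes were selected on their place in the pathway and on the processed signals of Hes1, whose low value on one of the arrays was already known, so every difference below is a description and was not tested.

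Cells were sorted from C57BL/6J mice, 11 weeks old per the labels, as CD150+CD48-Flt3-CD34- LSK cells, where LSK stands for cells that lack lineage markers and carry Sca-1 and c-Kit. WT was the control, AtmsKO mice were made to delete Atm, which encodes a kinase activated by broken DNA, and Atmp38dKO mice were made to delete Atm together with Mapk14, the gene of p38α. Floxed alleles were deleted with tamoxifen through a CAG-CreERT2 transgene, whose promoter is active in most tissues, so deletion was not limited to stem cells; the controls of the study also carried floxed alleles and received tamoxifen but lacked Cre. The series text places tamoxifen at about 5 weeks of age and the analysis 4 weeks later, which differs from the age in the labels, and neither source gives the number of mice behind an array. Each genotype was measured on 1 one-colour Agilent array, and the 3 arrays shared a slide and a scan. Without replicates no p-value was given, and a comparison is between single arrays rather than between genotypes.

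Notch receptors are single-pass membrane proteins that are cut when a ligand of the Delta or Jagged family on a neighbouring cell binds them. The freed intracellular part enters the nucleus, joins RBPJ and Mastermind proteins on DNA, and switches on genes of which the Hes and Hey repressors are the best known. In blood the pathway is required for the first stem cells of the embryo and for T cell fate, and Hes1 is a widely used readout of its activity, although other signals also induce Hes1.

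The labels were checked first on the deleted genes. Processed signal, the background-subtracted intensity of a spot, was 88.8, 16.3 and 49.0 for WT, AtmsKO and Atmp38dKO in turn at one Atm probe and 87.0, 23.9 and 86.5 at the other. Atm was thus at least 2-fold lower than on WT at both probes on the AtmsKO array, and at 1 of them on the Atmp38dKO array. Mapk14 gave 295, 260 and 345 at its first probe and 469, 558 and 616 at its second, and was not lower on the Atmp38dKO array at either. Where the probes of both genes lie relative to the deleted exons is not given in the sources used here. Those of Mapk14 may therefore lie outside the deleted parts, whereas both Atm probes were lower on AtmsKO than on WT. Why Atm differed between the mutant arrays was not tested. The third array is called the Atmp38dKO-labelled array throughout. LT-HSC markers gave a signal on every array, with all 12 of the list well above background, and the share of all probes well above background was 73.3%, 68.9% and 77.7% for WT, AtmsKO and Atmp38dKO in turn.

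Hes1 and Hey1 were each read by a single 60-base probe, so the sequence that each value rests on is shown. The Hes1 probe lies at chr16:30067820-30067879 on the plus strand and the Hey1 probe at chr3:8663432-8663491 on the minus strand (mm9, as given in the deposited files). A stretch of 30 bases of each follows, 5′ to 3′ as in the deposited files, with the longest run of bases the probes have in common in capitals.
Hes1: aaaatatcttccTTTGGGgaagtttatttg
Hey1: gaTTTGGGctctaaaagtattgttttacag
The shared run was 6 bases long, and the longest run that one probe shared with the reverse complement of the other was 5 bases. Laid end to end, the probes were identical at 10 of 60 positions. Their GC content was 26.7% for Hes1 and 35.0% for Hey1.

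Hes1 encodes the basic helix-loop-helix repressor that is the classical Notch target. Its processed signal was 1077 ± 108 on the WT array, 697 ± 69.7 on AtmsKO and 243 ± 24.3 on the Atmp38dKO-labelled array, where the error is that of the scanner software's error model for the spot and not a spread between mice. The 3 values stand in order, with WT highest and the Atmp38dKO-labelled array lowest. After scaling each array to its 75th percentile, Hes1 was 1.47-fold lower on the AtmsKO array than on the WT array (-0.55 on the log2 scale), 5.14-fold lower on the Atmp38dKO-labelled array than on WT (-2.36) and 3.51-fold lower there than on AtmsKO (-1.81), each with an error of 0.2 from the error model. For probes printed many times on an array, the median SD between spots was 0.053 log2 on each array. Hes1 had 1 spot per array, so this spread was not measured for its own probe. In bulk RNA of sorted cells, fewer cells expressing a gene and less RNA per cell cannot be told apart.

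Hey1, a related repressor that is also induced by Notch, gave 997 ± 99.7, 681 ± 68.1 and 231 ± 23.1 for WT, AtmsKO and Atmp38dKO in turn. The order of the arrays was that of Hes1. Hey1 was 1.39-fold lower on AtmsKO than on WT (log2 difference -0.47), 5.01-fold lower on the Atmp38dKO-labelled array than on WT (-2.33) and 3.61-fold lower there than on AtmsKO (-1.85), each with an error of 0.2. The spots of both probes lay far apart on the slide, at row 172 and column 149 for Hes1 and at row 300 and column 58 for Hey1. The 108 spots around Hes1, within 6 rows and columns, had median log2 differences of 0.07, -0.02 and -0.07 in the 3 comparisons, and the 110 spots around Hey1 had 0.07, -0.05 and -0.11.

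The other target and modulator genes among the 10 did not share this order. Nrarp, a small ankyrin-repeat protein that is induced by Notch and limits it, gave 100, 119 and 155 for WT, AtmsKO and Atmp38dKO in turn. Its value was lowest on the WT array, with log2 differences of 0.32 for AtmsKO and 0.41 for the Atmp38dKO-labelled array relative to WT, each with an error of 0.21. Dtx1, the E3 ligase Deltex, was close to background. It gave 6.59 on the WT array, 4.78 on AtmsKO, where it was not well above background, and 9.59 on the Atmp38dKO-labelled array, which was 0.33 above WT on the log2 scale with an error of 0.36.

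**Figure D1:**
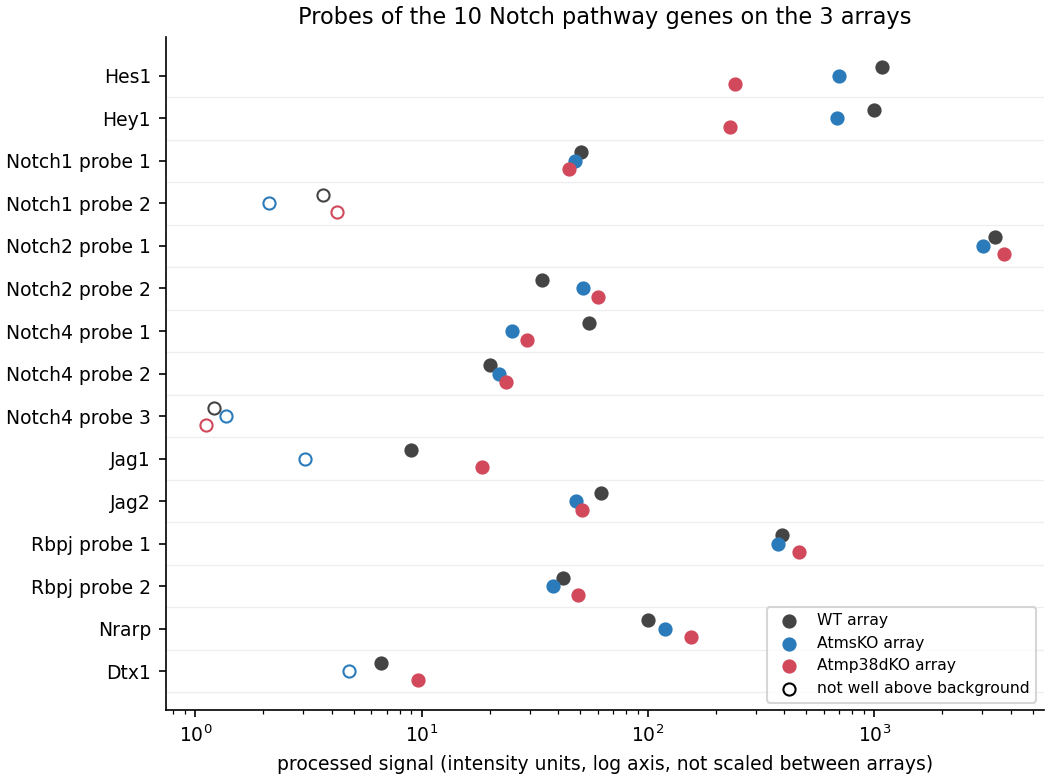
Processed signal (horizontal log axis, intensity units before scaling between arrays) of all 15 probes of the 10 genes, with 1 point for each array and open points where the spot was not well above background. Hes1 and Hey1 are lowest on the Atmp38dKO-labelled array at 243 and 231, while the brighter Notch2 probe lies between 3012 and 3733 on all 3 arrays.

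Of the receptors, Notch2 was read at 3425, 3012 and 3733 for WT, AtmsKO and Atmp38dKO in turn by the probe at chr3:97953914-97953973. After scaling, these values lay within 0.11 log2 of each other. The other Notch2 probe, at chr3:97904420-97904479, gave 34, 51.6 and 60.1 and was higher on both mutant arrays than on WT, by 0.68 for AtmsKO and 0.61 for the Atmp38dKO-labelled array on the log2 scale. The probes of Notch2 thus disagreed over the mutant arrays. Notch1, the receptor that drives T cell fate, gave 50.5, 47.7 and 44.8 at chr2:26319440-26319499, and differed from WT by -0.01 log2 for AtmsKO and -0.39 log2 for the Atmp38dKO-labelled array. Its other probe was not well above background on any array.

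Notch4, the receptor best known from blood vessels, was the only receptor of the 10 genes past 2-fold. The brightest of its 3 probes gave 55.1 ± 5.69 on the WT array, 25.1 ± 2.98 on AtmsKO and 29.1 ± 3.19 on the Atmp38dKO-labelled array. WT stood above both mutant arrays, which differed little from each other, and the log2 differences against WT were -1.06 with an error of 0.23 for AtmsKO and -1.13 with an error of 0.22 for the Atmp38dKO-labelled array. The second probe did not show this: it gave 20.0, 22 and 23.5, with log2 differences of 0.22 and 0.02 against WT. The third probe was at 1.21, 1.37 and 1.11 and was well above background on no array.

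The Notch4 probes read different sequence, which is shown because the call for the gene turns on the probe. The first lies at chr17:34725384-34725442, the second at chr17:34721567-34721775, which spans 209 bases of genome for 60 bases of probe, and the third at chr17:35104770-35104829, all on the plus strand (mm9). The second is 3.8 kb and the third 379 kb from the first. The first 30 bases of each probe follow, from the 5′ end and without capitals since no part is singled out.
Notch4 probe 1: agtcactgctatctccgagaaccccaaact
Notch4 probe 2: ttggtcttaaggcactgaagccagaggccg
Notch4 probe 3: ggttaggtatcaatgttttgatctaagctt
Which transcripts each probe reads was not tested.

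The Jagged ligands were dim. Jag1 gave 8.96 on the WT array, 3.04 on AtmsKO, where it was not well above background, and 18.5 on the Atmp38dKO-labelled array, which stood highest. Where a probe was not well above background on an array, its value was raised to the lowest signal well above background there, and the fold is then a bound. On this basis Jag1 was at least 1.39-fold lower on AtmsKO than on WT and at least 2.47-fold higher on the Atmp38dKO-labelled array than on AtmsKO. Against WT the Atmp38dKO-labelled array was 0.83 higher on the log2 scale, with an error of 0.31. Jag2 gave 61.8, 48.2 and 51.2 and was highest on WT, with log2 differences of -0.28 for AtmsKO and -0.49 for the Atmp38dKO-labelled array.

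Rbpj, the factor through which the cut receptors reach DNA, stayed within 0.07 log2 over all comparisons at both of its probes. The probe at chr5:54047306-54047365 gave 389, 374 and 466 for WT, AtmsKO and Atmp38dKO in turn, with scaled differences of 0.02, 0.04 and 0.03. The probe at chr5:54027234-54027293 gave 42.1, 37.9 and 48.8, with differences of -0.07, 0.00 and 0.07. TGGGAA, the core sequence that RBPJ binds, was searched on both strands of RefSeq promoter windows (GRCm38.p6, 250 bases before to 50 after each gene's start). It was found in 1 of the 8 genes among the 10 that had a window, Rbpj itself, and in 25.6% of all 32851 windows. Hes1 and Hey1 were not among the genes with a window.

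Counted over the 10 genes by their brightest probe, 1 gene was at least 2-fold lower on AtmsKO than on WT (Notch4) and none was higher, where 3.98% of the 29040 genes that either array read well above background were lower and 3.81% higher. On the Atmp38dKO-labelled array, 3 of the 10 were at least 2-fold lower than on WT (Hes1, Hey1 and Notch4) and none was higher, beside 4.41% lower and 3.95% higher among 30646 genes. Against AtmsKO, 2 were lower (Hes1 and Hey1) beside 3.62% of 30202 genes, and 1 was higher (Jag1, as a bound) beside 3.7%. The median log2 difference of the 10 genes was -0.2, -0.24 and -0.03 in the 3 comparisons, where that of all genes was 0.01, 0.02 and 0.00. Nothing is read from these counts, since the same contrasts were known when the genes were picked. Both comparisons with WT share the WT array, and both with the Atmp38dKO-labelled array share that array.

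Among 10164 genes with a processed signal of at least 100 on all 3 arrays, 4 (0.0394%) were at least 4-fold lower on the Atmp38dKO-labelled array than on WT. These were Hes1 (log2 difference -2.36), Hey1 (-2.33), and the inducible Hsp70 chaperone genes Hspa1b (-2.06) and Hspa1a (-2.03). Notch4 lay below that signal level. The filter also left out genes that fell below 100 on the Atmp38dKO-labelled array. A gene with a WT signal near 100 could not be 4-fold lower and still pass. The share of 0.0394% therefore holds only under this filter. Over all 30646 genes compared, the lowest log2 difference for that array relative to WT was -6.44.

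**Figure D2:**
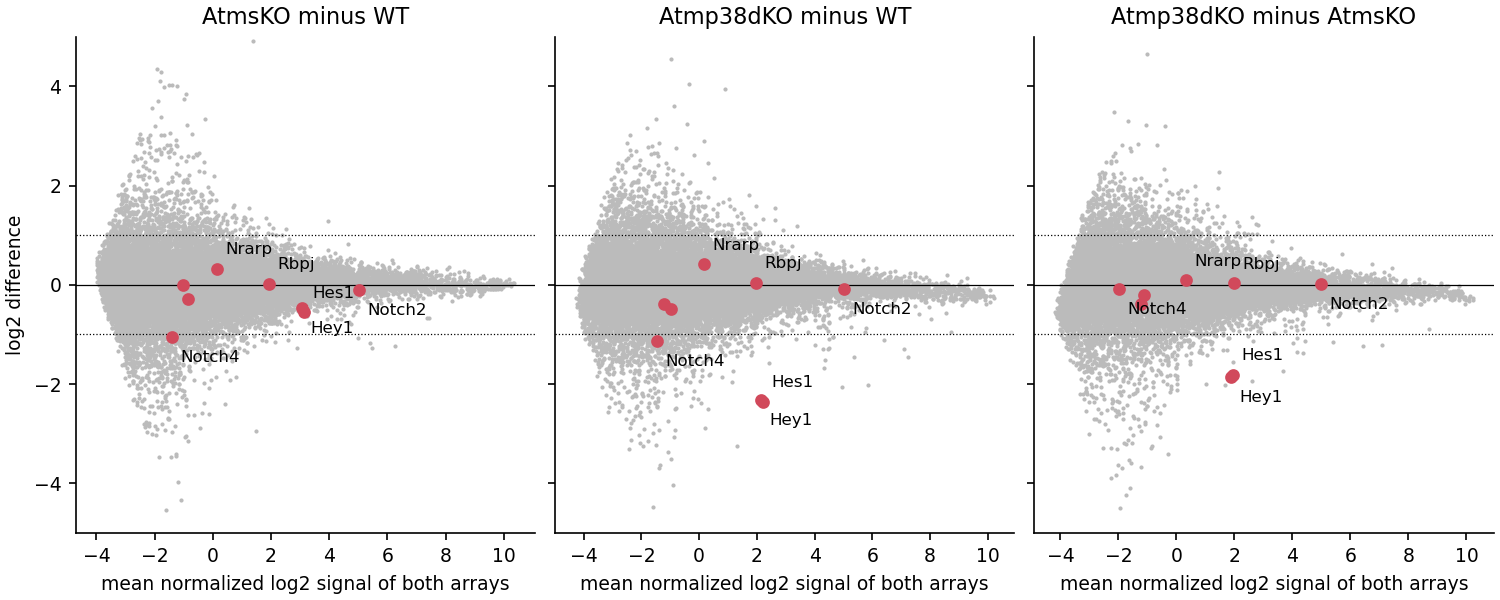
Log2 difference (vertical axis) against the mean normalized log2 signal of both arrays compared (horizontal axis), 1 panel for each comparison, with all genes well above background on the 3 arrays in grey, the 8 of the 10 Notch pathway genes among them in red and dotted lines at 2-fold. At their signal level, Hes1 and Hey1 stand below the grey cloud in both comparisons of the Atmp38dKO-labelled array, at -2.36 and -2.33 against WT. Notch4 lies within the cloud.

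Around the 10 genes, a hand-written list of 89 pathway genes that includes them was ordered by role, and 85 of these were read well above background by either array of a comparison and so could be compared. Without the 10 genes, 75 could be compared, and their median log2 difference was 0.01 for AtmsKO relative to WT, 0.03 for the Atmp38dKO-labelled array relative to WT and -0.01 for the latter against AtmsKO. In the same order, 2, 0 and 0 of the 75 were at least 2-fold higher and 2, 3 and 2 were at least 2-fold lower, beside 3.7% to 3.95% of all genes higher and 3.62% to 4.41% lower. The median of the wider pathway thus stayed within 0.03 of 0 in each comparison.

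The other repressors of the Hes and Hey family were not past 2-fold where Hes1 and Hey1 were. Of the 11 genes of the family, 9 could be compared, and Hes1 and Hey1 were the only ones past 2-fold in any comparison. Hes5, another direct Notch target, gave 564, 625 and 756 for WT, AtmsKO and Atmp38dKO in turn at its brightest probe. That was a log2 difference of 0.21 for the Atmp38dKO-labelled array relative to WT. The other Hes5 probe, also well above background, did not share this direction in either comparison with WT. Hes6 gave 154, 164 and 217 (0.28 for the same comparison). Hes7, known from the clock that forms the vertebral segments, gave 171, 133 and 172 (-0.21). Bhlhe40, a related repressor of the circadian clock, was lower on the Atmp38dKO-labelled array, with 105, 99.3 and 76.7 (-0.66). Hes3 and Hey2 were well above background on no array.

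Of 11 other proposed Notch targets, 10 could be compared, and none was past 2-fold at its brightest probe in the comparisons of the Atmp38dKO-labelled array. Their median log2 difference was -0.04 for that array relative to WT. Myc gave 2060, 1888 and 1854 for WT, AtmsKO and Atmp38dKO in turn and Gata2, a stem cell factor, 6179, 6291 and 6630. Their log2 differences for the Atmp38dKO-labelled array relative to WT were -0.37 and -0.11. Cdkn1a, the cell cycle inhibitor p21, was the only gene of this group past 2-fold, with 213, 94.7 and 135 and a log2 difference of -1.10 for AtmsKO relative to WT. Its second probe gave 57.5, 48.0 and 38.8, and its difference of -0.18 for AtmsKO relative to WT was within the error of 0.21. The third was not well above background on AtmsKO, with a log2 bound of -1.79 against WT. On the Atmp38dKO-labelled array all 3 Cdkn1a probes were lower than on WT, with log2 differences of -0.88, -0.78 and -1.52. With the mean over all probes that difference was -1.06, which is past 2-fold.

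In the machinery between ligand and nucleus, 7 further genes were past 2-fold at their brightest probe in at least 1 of the 3 comparisons, in either direction. In single comparisons 3.7% to 3.95% of all genes were higher and 3.62% to 4.41% lower. The share of all genes past 2-fold in any comparison was not computed, so nothing is read from this count. Lfng, a glycosyltransferase that tunes which ligands a receptor answers, gave 190, 240 and 141 and had a log2 difference of -1.06 for the Atmp38dKO-labelled array relative to AtmsKO. Neurl1b, an E3 ligase acting on the ligands, gave 89.9, 35.2 and 73.1, a log2 difference of -1.28 for AtmsKO relative to WT. Numbl, a relative of the Notch inhibitor Numb, gave 179, 376 and 249 and was 1.15 higher on AtmsKO than on WT. The other Numbl probe also stood higher on AtmsKO than on WT, by 1.45. The other Lfng and Neurl1b probes differed by -0.15 and -0.21 in the comparison named, which is within their errors of 0.21 and 0.22, and the mean over all probes was below 2-fold for both genes (-0.60 and -0.74).

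The remaining called genes act in the nucleus, and most of them rested on 1 of their probes. Kat2a, a histone acetyltransferase, gave 142, 393 and 121 for WT, AtmsKO and Atmp38dKO in turn, with log2 differences of 1.54 for AtmsKO relative to WT and -2.0 for the Atmp38dKO-labelled array relative to AtmsKO. Its other probe gave 67.0, 84.5 and 131 and was highest on the Atmp38dKO-labelled array. Maml3, a Mastermind coactivator, gave 163, 95.8 and 80.2 (-1.24 for the Atmp38dKO-labelled array relative to WT) at one probe and 82.4, 62.4 and 119 at the other. Tle1, a Groucho corepressor that Hes proteins recruit, gave 163, 116 and 90.2 (-1.07) at its brightest probe, whereas its 2 other probes were higher on the Atmp38dKO-labelled array than on WT. Kat2b, an acetyltransferase related to Kat2a, had a single probe, with 45.2, 31.7 and 25.8 (-1.02).

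**Figure D3:**
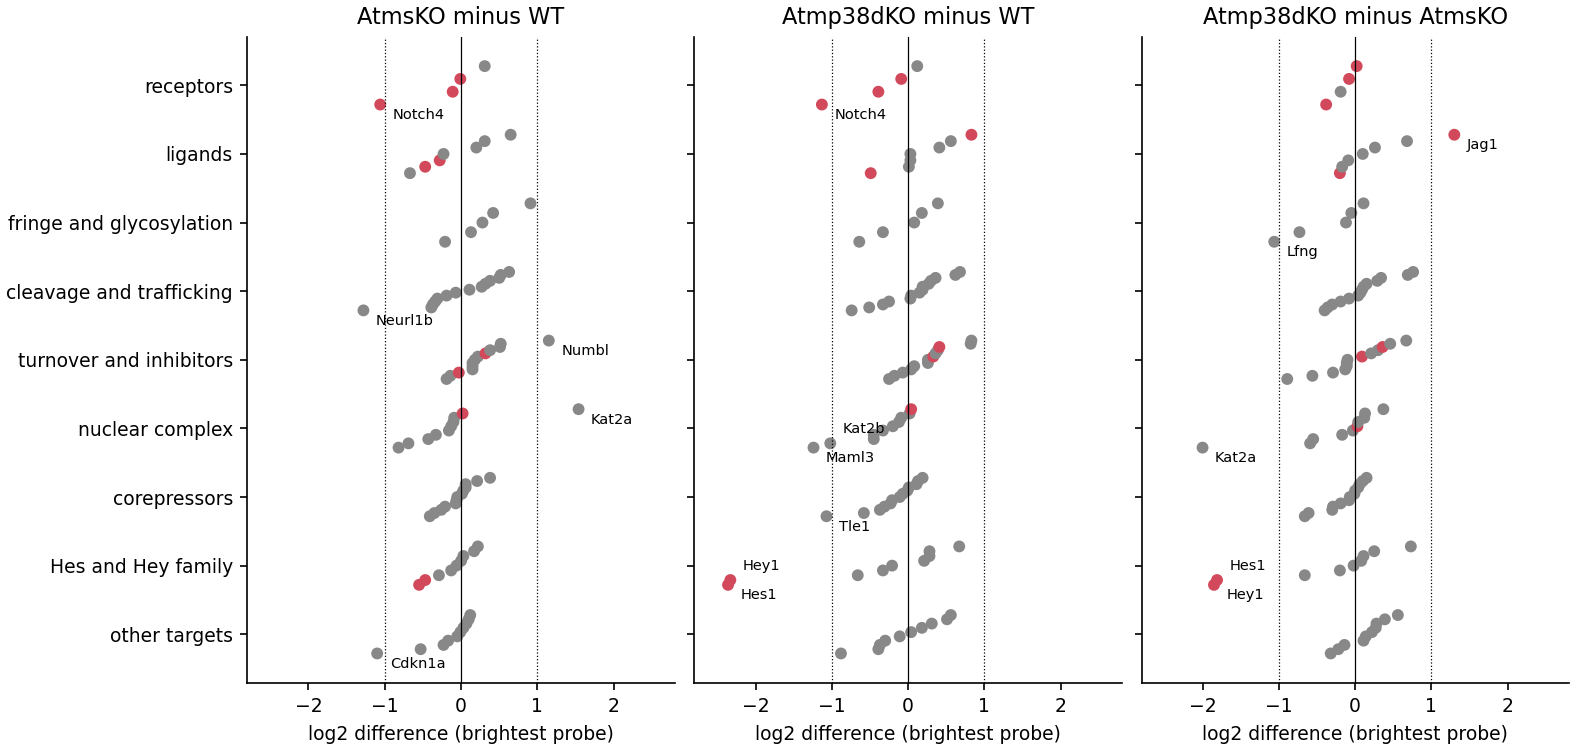
Log2 difference (horizontal axis, brightest probe) of each pathway gene that could be compared, by role (vertical axis), 1 panel for each comparison, with the 10 genes in red, other genes in grey, dotted lines at 2-fold and names for genes past them. In both comparisons of the Atmp38dKO-labelled array, Hes1 and Hey1 stand apart from the rest of their family, at -2.36 and -2.33 against WT, while the other roles spread on both sides of 0.

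The genes whose pattern was most like that of Hes1 were sought among the 10164 genes with a signal of at least 100 on all arrays, by the distance between the pairs of log2 differences of AtmsKO and of the Atmp38dKO-labelled array relative to WT. With 3 arrays such a likeness rests on 2 differences that share the WT array. Hey1 was the closest, at a distance of 0.09. Atf3, a transcription factor induced by stress, followed at 0.41, with signals of 440, 267 and 131 for WT, AtmsKO and Atmp38dKO in turn. Parp8, of the PARP family, was next at 0.67, with 420, 232 and 146, although its log2 difference for the Atmp38dKO-labelled array relative to WT went from -1.74 to -0.64 when all its probes were averaged. Hspa1b stood at 0.69, with 6430, 2691 and 1784, and Jun, a subunit of the AP-1 transcription factor, at 0.71, with 3652, 2740 and 1318. Atf3, Hspa1b and Jun were also on a list of 19 immediate early and stress genes, which cells switch on within minutes of handling, growth signals or heat.

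Most genes of the stress list were lower on the same array as Hes1 and Hey1. On the Atmp38dKO-labelled array, 18 of its 19 genes were lower than on WT, 12 of them at least 2-fold, with a median log2 difference of -1.17, where 14664 of all 30646 genes were lower and 4.41% at least 2-fold lower. On AtmsKO, 16 of 19 were lower than on WT, 2 of them at least 2-fold, with a median of -0.3, where 14230 of all 29040 genes were lower and 3.98% at least 2-fold lower. All 19 were well above background on every array, and their summed level, in units of each array's 75th percentile signal, was 1655 on WT, 1433 on AtmsKO and 825 on the Atmp38dKO-labelled array. Egr1, an immediate early factor, gave 25186, 20033 and 10604 (-1.46 for the Atmp38dKO-labelled array relative to WT), and Fos, a partner of Jun, gave 3323, 2559 and 1801 (-1.10). Egr2 was the exception on the Atmp38dKO-labelled array, with 201, 224 and 366 and a difference of 0.65 against WT. The part of these genes in the Hes1 and Hey1 values was not tested.

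**Figure D4:**
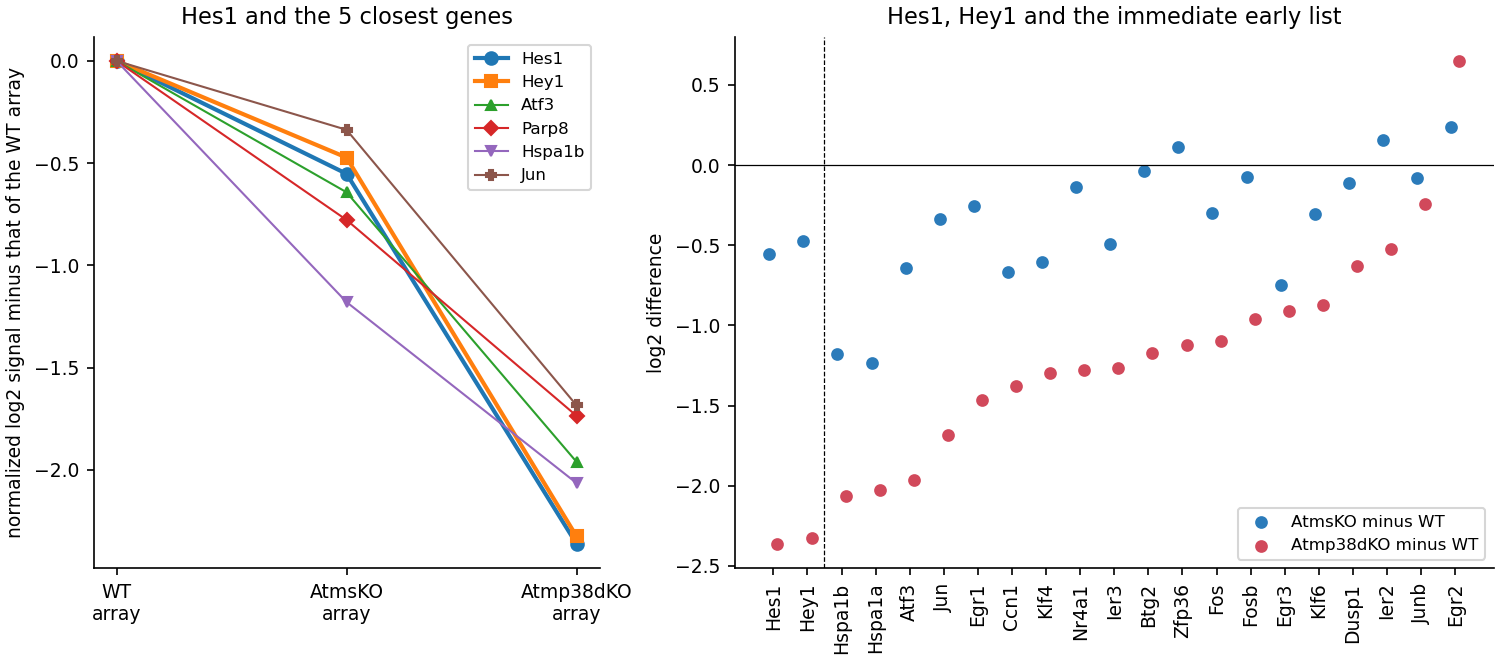
Left, normalized log2 signal minus that of the WT array (vertical axis) of Hes1 and the 5 genes closest to it on the 3 arrays; right, log2 difference against WT (vertical axis) of Hes1, Hey1 and the 19 immediate early and stress genes, with AtmsKO in blue and the Atmp38dKO-labelled array in red. The red points of 18 of the 19 genes lie below 0, and those of Hes1 and Hey1, at -2.36 and -2.33, lie lowest.

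Markers of other cell types were set beside these values. Summed T cell markers were higher on the Atmp38dKO-labelled array, at 8.75 against 3.62 on WT and 3.75 on AtmsKO in units of the 75th percentile signal. In that order, 6, 5 and 5 of 7 markers were well above background. Only Cd2 (3.36, 1.56 and 180 for WT, AtmsKO and Atmp38dKO in turn) and Cd28 (169, 147 and 539) were past 2-fold, beside 3.95% of all genes higher than on WT. Cd2 was well above background only on the Atmp38dKO-labelled array. Cd2 and Cd28 have 2 probes each, and the other probe was well above background on both arrays of no comparison. Relative to WT, Cd3e (0.62) and Lck (0.52) were also higher there on the log2 scale, whereas Cd3d (-0.19) and Cd8a (-0.82, a bound) were lower. For Cd3g (-0.04) the WT value was a raised one. Endothelial markers summed to 2.98, 3.56 and 2.21 for WT, AtmsKO and Atmp38dKO in turn, with 5, 5 and 4 of 8 well above background. Cdh5, Flt4 and Lyve1 were well above background on no array, whereas Emcn, Stab2, Sox17 and Kdr were on all 3. Kdr, a receptor for vascular growth factors, gave 5.88, 114 and 18.1. That put it 4.36 higher on AtmsKO and 1.41 higher on the Atmp38dKO-labelled array than on WT on the log2 scale. Its WT value was near 5.33, the lowest signal well above background there. None of the other Kdr probes, of 3 in all, was well above background on both arrays of a comparison. Plvap gave 12.5, 12.5 and 3.35, the last not well above background, with a log2 bound of -1.54 for the Atmp38dKO-labelled array relative to WT. Both lists are named here because Notch1 and Notch4 are known from these cells. The 12 LT-HSC markers summed to 81.2 on WT, 78.7 on AtmsKO and 69.6 on the Atmp38dKO-labelled array, and Fgd5 and Hoxb5 were at least 2-fold lower there than on WT, with log2 differences of -1.72 and -1.64. The part of these markers in the Notch pathway values was not tested.

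Of 7 other ways of making the values, 3 could move the differences of Hes1 and Hey1: normexp background correction, quantile normalization and scaling to the median of probes above background. Each gene has 1 bright probe, so the rules on dim probes and on several probes leave it as it is, and the authors' log2 table holds the same values less a constant. Under those 3, Hes1 ranged from -2.38 to -2.07 for the Atmp38dKO-labelled array relative to WT and Hey1 from -2.34 to -2.12. Against AtmsKO, Hes1 ranged from -1.83 to -1.53 and Hey1 from -1.87 to -1.61. Notch4 did not hold: its difference for AtmsKO relative to WT ranged from -1.06 to -0.19 and that for the Atmp38dKO-labelled array from -1.15 to -0.44, with the values below 2-fold coming from normexp background correction (-0.38 and -0.44) and from the mean over all 3 probes (-0.19 and -0.48). Normexp background correction adds an offset of 50 to every intensity, which shrinks the differences of probes as dim as those of Notch4. In the mean over all 3 probes, the third entered only as raised values, since it was well above background on no array. Jag1 was also sensitive to the treatment of dim spots, with 0.23 to 2.32 for the Atmp38dKO-labelled array relative to AtmsKO.

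**Figure D5:**
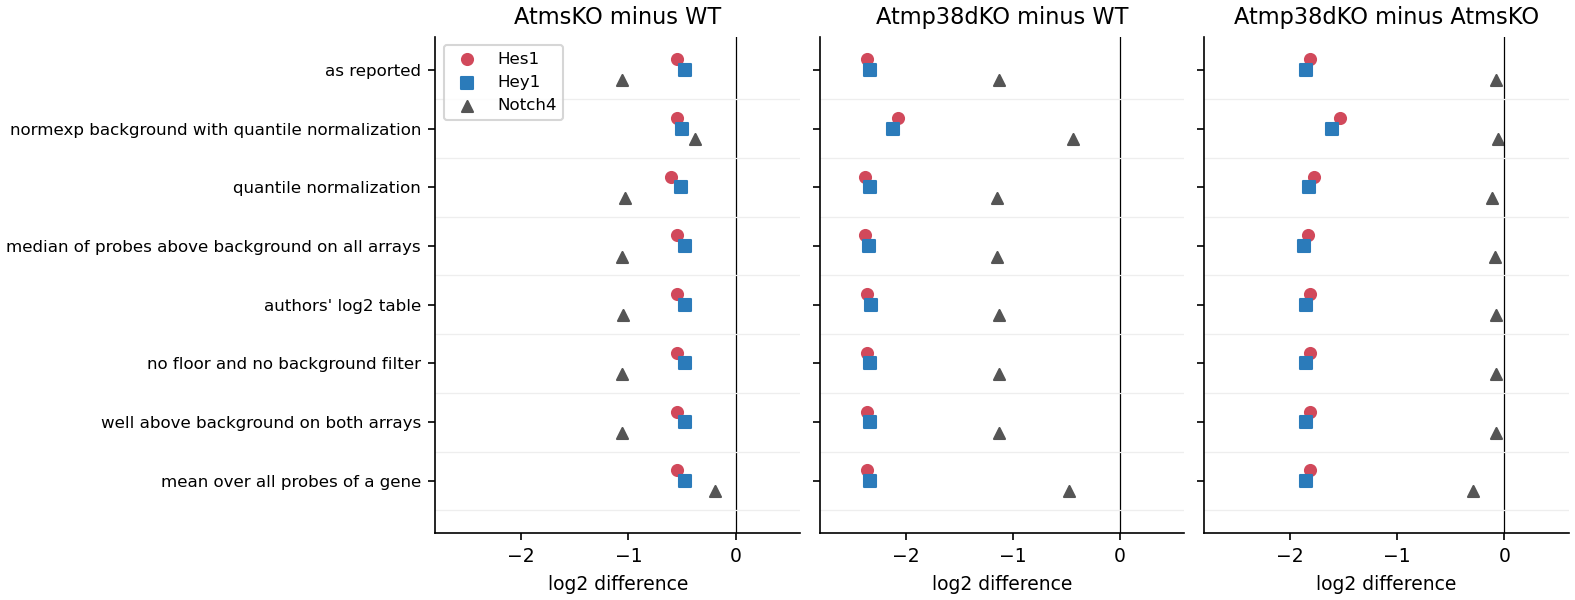
Log2 difference (horizontal axis) of Hes1, Hey1 and Notch4 as reported and under 7 other ways of making the values (vertical axis), 1 panel for each comparison. Hes1 and Hey1 stay at or below -2.07 for the Atmp38dKO-labelled array relative to WT, whereas Notch4 shrinks to -0.44 with normexp background correction and -0.48 with the mean over all probes.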

How the data were processed

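Total RNA of sorted LT-HSCs was labelled with Cy3 and hybridized to 1 array per genotype, 3 arrays in all. RNA extraction to normalization was outsourced by the authors. The deposited scanner files hold spot intensity made with Agilent Feature Extraction 11.5.1.1, background-subtracted and not normalized between arrays, with probe positions on mm9. The authors also deposited a log2 table. It equalled log2 of the processed intensity minus a constant for each array to a tolerance of 0.02 for 100.0% (WT), 100.0% (AtmsKO) and 99.8% (Atmp38dKO) of probes, with column medians of -2.18, -2.22 and -2.17; it was used as an alternative.

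Control and outlier spots were left out, spots of a probe were averaged, and each array's 75th percentile was subtracted on the log2 scale (Python 3.11.15, numpy 2.4.6, pandas 2.3.3). Any change in the total RNA of a cell is thereby lost. A probe was well above background if over 50% of its spots were. Genes, named through RefSeq accessions for 32994 of 56605 probes and by the file otherwise, were represented by the probe brightest on average. A gene was called if at least 2-fold different and well above background on the brighter array, with dimmer values raised to that array's lowest signal well above background (5.33 for WT, 6.12 for AtmsKO and 4.97 for Atmp38dKO); a fold made with a raised value is a bound. No probe was saturated. With 3 arrays, precision is limited by their number. Named are the 10 genes, pathway genes past 2-fold, the 5 genes closest to Hes1, Atm and Mapk14; other genes were named to describe their lists after their values were seen. The genes and lists were chosen with earlier results of these data known. The calling code was tested on simulated data. Alternatives were normexp background correction (limma 3.58.1, R 4.3.3, offset 50) with quantile normalization, other scalings, filters, folds and probe rules.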

Additional observations from a re-analysis of the deposited data

How the results depend on the processing

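The spread between spots, taken for a difference between arrays, was 0.075 log2. Of 138 values that answer a comparison, computed over 8 alternatives, 113 moved by no more than that or, for counts, stayed within 1.5 times. The other 25 moved. Of 437 values of single genes, 350 stayed, 86 moved and 1 reversed. Of the values past 2-fold, 1 changed sign (Tle1, below). Smaller differences also changed sign, among them, with the mean over all probes, those of Notch2 (from -0.11 to 0.29 for AtmsKO and from -0.09 to 0.26 for the Atmp38dKO-labelled array relative to WT), Kat2a (from -0.45 to 0.15 for the latter) and Tle1 (from -0.66 to 1.04 for the Atmp38dKO-labelled array relative to AtmsKO), and the medians of the 89 genes, which lay between -0.03 and 0.04. With normexp background correction Hes1 was -2.07 for the Atmp38dKO-labelled array relative to WT and -1.53 against AtmsKO. This correction adds an offset of 50 to every intensity, which shrinks the differences of dim probes. All calls thinned out under it (125 genes lower on the Atmp38dKO-labelled array than on WT, against 1350), and so did those of the pathway: for AtmsKO relative to WT 1 gene of the 89 was higher and 0 lower and 0 of the 10 genes were lower, for the Atmp38dKO-labelled array relative to WT 2 of the 89 were lower, and against AtmsKO 0 of the 10 and 0 of the 89 were higher. With that correction, 0.219% to 0.375% of all genes were higher and 0.348% to 0.408% lower over the 3 comparisons. With the mean over all probes of a gene, AtmsKO relative to WT gave 1 of the 89 higher, 1 lower and 0 of the 10 lower. Of all genes, 3.18% were then higher and 3.29% lower. Under this rule the Atmp38dKO-labelled array relative to AtmsKO gave 2 higher and 2 lower of the 89, beside 2.96% and 3.1% of all genes. Tle1 turned to 0.61 under it for the Atmp38dKO-labelled array relative to WT. Without a floor or background filter, 2 of the 10 and 5 of the 89 were lower on AtmsKO than on WT, beside 7.92% of all genes. On the Atmp38dKO-labelled array, 2 of the 89 were then higher than on AtmsKO, beside 8.55% of all genes. Where both arrays had to be well above background, 0 of the 10 and 0 of the 89 were higher in that comparison, beside 2.74%. At 1.5-fold, the 89 gave 5 higher and 6 lower for AtmsKO relative to WT, 6 higher (1 of the 10) and 10 lower for the Atmp38dKO-labelled array relative to WT, and 6 higher and 10 lower against AtmsKO, where 9.98% to 10.9% of all genes were higher and 8.75% to 10.6% lower. The cause was not tested. No paired analysis was possible because only 1 array was made per genotype and nothing here was tested. For the same reason no array could be left out in turn.

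Differences of dim probes rest on few intensity units: Jag1 and Dtx1 lay near the lowest signal well above background, and their values there are bounds.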
